A study of Mus musculus with 294 samples.

Results

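The genes described here encode the respiratory chain and the ATP synthase: every gene whose symbol, as annotated or as updated, begins with Nduf, Uqcr, Cox4 to Cox8, or Atp5. The rule found 80 of the 16643 genes measured in the livers of an F2 intercross, 70 by the annotated symbol and 10 only by the updated one. They were 30 subunits of complex I, 8 of complex III, 8 of complex IV and 14 of the ATP synthase (complex V), called the 60 core subunits below, and 20 others. Those were 8 assembly factors of complex I (Ndufaf1 to Ndufaf8), 8 complex IV isoforms known mainly from other tissues, the supercomplex factor Cox7a2l, and 3 genes that only their annotated symbols brought in and that encode no subunit (Emc8, Dmac2 and Dmac2l). Complex II has other symbols, and its genes are given for comparison.

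The 294 mice were the F2 of a cross of B6/J with A/J, and each gave 1 liver array of normalized intensities, all in 1 group. The labels state no age, sex or treatment. The first 3 digits of the leading number in each title form 15 label blocks, each of 17 to 23 animals. Each title also holds an F2 number, and each block covers its own run of F2 numbers. Nothing says what the blocks mark. Array medians lay between 21.1 and 23.2 intensity units, and the number of arrays limits the precision. Of 6 listed hepatocyte markers 4 were measured (Alb, Ttr, Cps1 and Tat), all above the median gene, with a summed intensity of 51018 at the lowest, 58189 at the median and 64195 at the highest. Each array was summarised by its median r with the rest, which was 0.989 for the median array and 0.974 for the lowest. In 27 arrays it was lower than the typical value by over 3 median absolute deviations, though still high, and values without them are given where they bear on a result. The log2 levels of Eif2s3y, which lies on the Y chromosome, left a gap from 3.03 to 6.97 that split the animals into nearly equal sets. An intensity is not an abundance: beyond the side of the median gene on which a probe lies, levels of different genes are not compared. In whole liver, fewer cells of a type and less RNA per cell cannot be told apart.

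Complex I takes electrons from NADH, complex III passes them from ubiquinol to cytochrome c, and complex IV delivers them to oxygen. The protons these complexes pump drive the ATP synthase. Most subunits are encoded in the nucleus and a few in mitochondrial DNA, and in liver, a tissue that oxidises fatty acids and makes glucose, the chain supplies ATP for both. The coactivator PGC-1alpha (Ppargc1a) and the nuclear receptor ERR-alpha (Esrra) are known regulators of the nuclear genes.

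The core subunits differed little between animals. Over the 60 genes the median ratio of the 90th to the 10th percentile of the 294 animals was 1.2-fold, and the widest ratio was 1.43-fold, against a median of 1.38-fold over all genes. The SD of 57 of the 60 was below that of genes with a similar mean (a running median), with a median ratio of 0.65. The narrowest was Atp5g3, which encodes the c subunit of the ATP synthase rotor, with 8024 units in the lowest, 9034 in the median and 9881 in the highest animal, a ratio of 1.09-fold. Atp5b, the catalytic beta subunit, ran through 8707, 10677 and 12168 units (lowest, median and highest) with a ratio of 1.12-fold. Uqcrb, a small subunit of complex III, had 7040, 8511 and 10175 units on the same terms and a ratio of 1.11-fold. Cox6a1, the liver form of a complex IV subunit, had 7632, 8696 and 10210 units and a ratio of 1.14-fold. In each of these genes the bulk of the animals lay close together.

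The widest core subunits were both in complex I. Ndufs1, the largest subunit of the complex and a carrier of iron-sulfur clusters, had 514 units in the lowest animal, 967 in the median and 1194 in the highest, a percentile ratio of 1.42-fold. Its low end was long, since the lowest animal stood farther from the median than the highest did. Ndufs4, an accessory subunit needed for a stable complex, had 409, 579 and 799 units and a ratio of 1.43-fold. Only 6 of the 80 genes had a ratio above 1.5-fold, or 7.5% of them, against 25.5% of all genes, and none of the 6 was a core subunit. They were Cox7a1 (2.55-fold), Ndufaf6 (1.90-fold), Cox8b (1.63-fold), Ndufaf4 (1.62-fold), Cox6b2 (1.53-fold) and Ndufaf5 (1.51-fold).

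**Figure D1:**
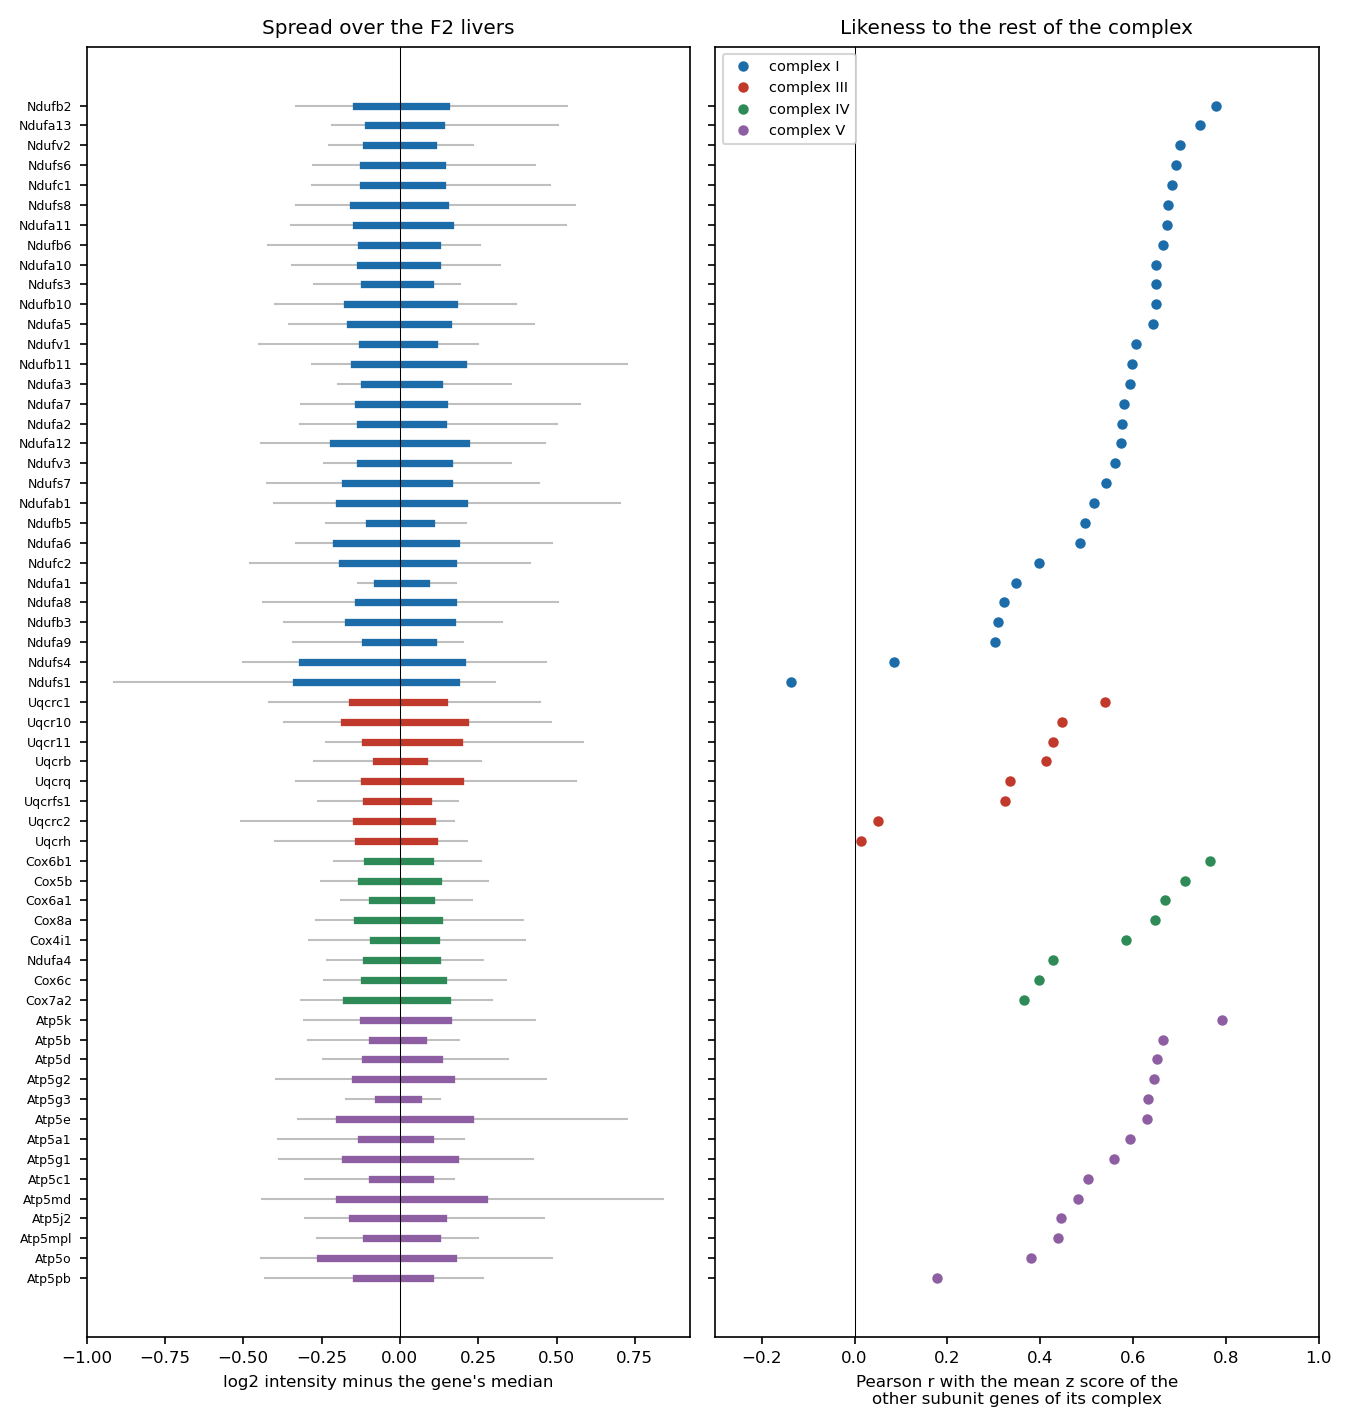
Left, for each of the 60 core subunit genes, log2 intensity relative to the gene's own median over 294 F2 livers: the thin line spans the lowest to the highest animal and the thick bar the 10th to the 90th percentile. Right, Pearson r of each gene with its complex, as the mean z score of the remaining subunit genes. Ndufs1 has the longest low tail and the only negative r, -0.137.

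The core subunits varied together. Of their 1770 pairs, 1545 had a positive Pearson r over the animals (87.3%), with a mean r of 0.295, and 20.4% of pairs had r of at least 0.5. Over all genes the mean pairwise r was 0.0046 with 48.7% of pairs positive, and over the 1554 genes whose means lay in the range of the core subunits it was 0.022 with 53.3% positive. Within single label blocks the mean pairwise r of the core ran from 0.185 to 0.471, so it was positive in each of the 15. Without the 27 arrays of low correlation it was 0.265. Other genes for large complexes had like values: 0.302 for 76 mitochondrial ribosomal protein genes, 0.285 for 26 cytosolic ribosomal protein genes and 0.302 for 40 proteasome subunit genes. These lists were described and not tested.

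The complexes differed in how closely their own genes went together. The mean pairwise r was 0.393 within complex IV, 0.336 within complex V, 0.303 within complex I and 0.166 within complex III. The order of complexes IV and V turned with the Y-linked genes: complex V was at 0.328 and complex IV at 0.277 in the animals above the gap in Eif2s3y (where complex I, at 0.285, was also above complex IV), at 0.382 and 0.358 below it, and at 0.354 and 0.328 with the Y-linked mean removed. It also turned with the first principal component removed (0.355 and 0.320). Between complexes it ran from 0.247 (III with IV) to 0.316 (I with IV), so pairs from complex I and complex IV were about as close as pairs within complex I. The mean z scores of the complexes correlated with each other at r from 0.694 (III with IV) to 0.862 (I with V), rho from 0.689 to 0.844, in each case positively in all 15 blocks. A low value within complex III thus stood beside high values of its mean with the other complexes.

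**Figure D2:**
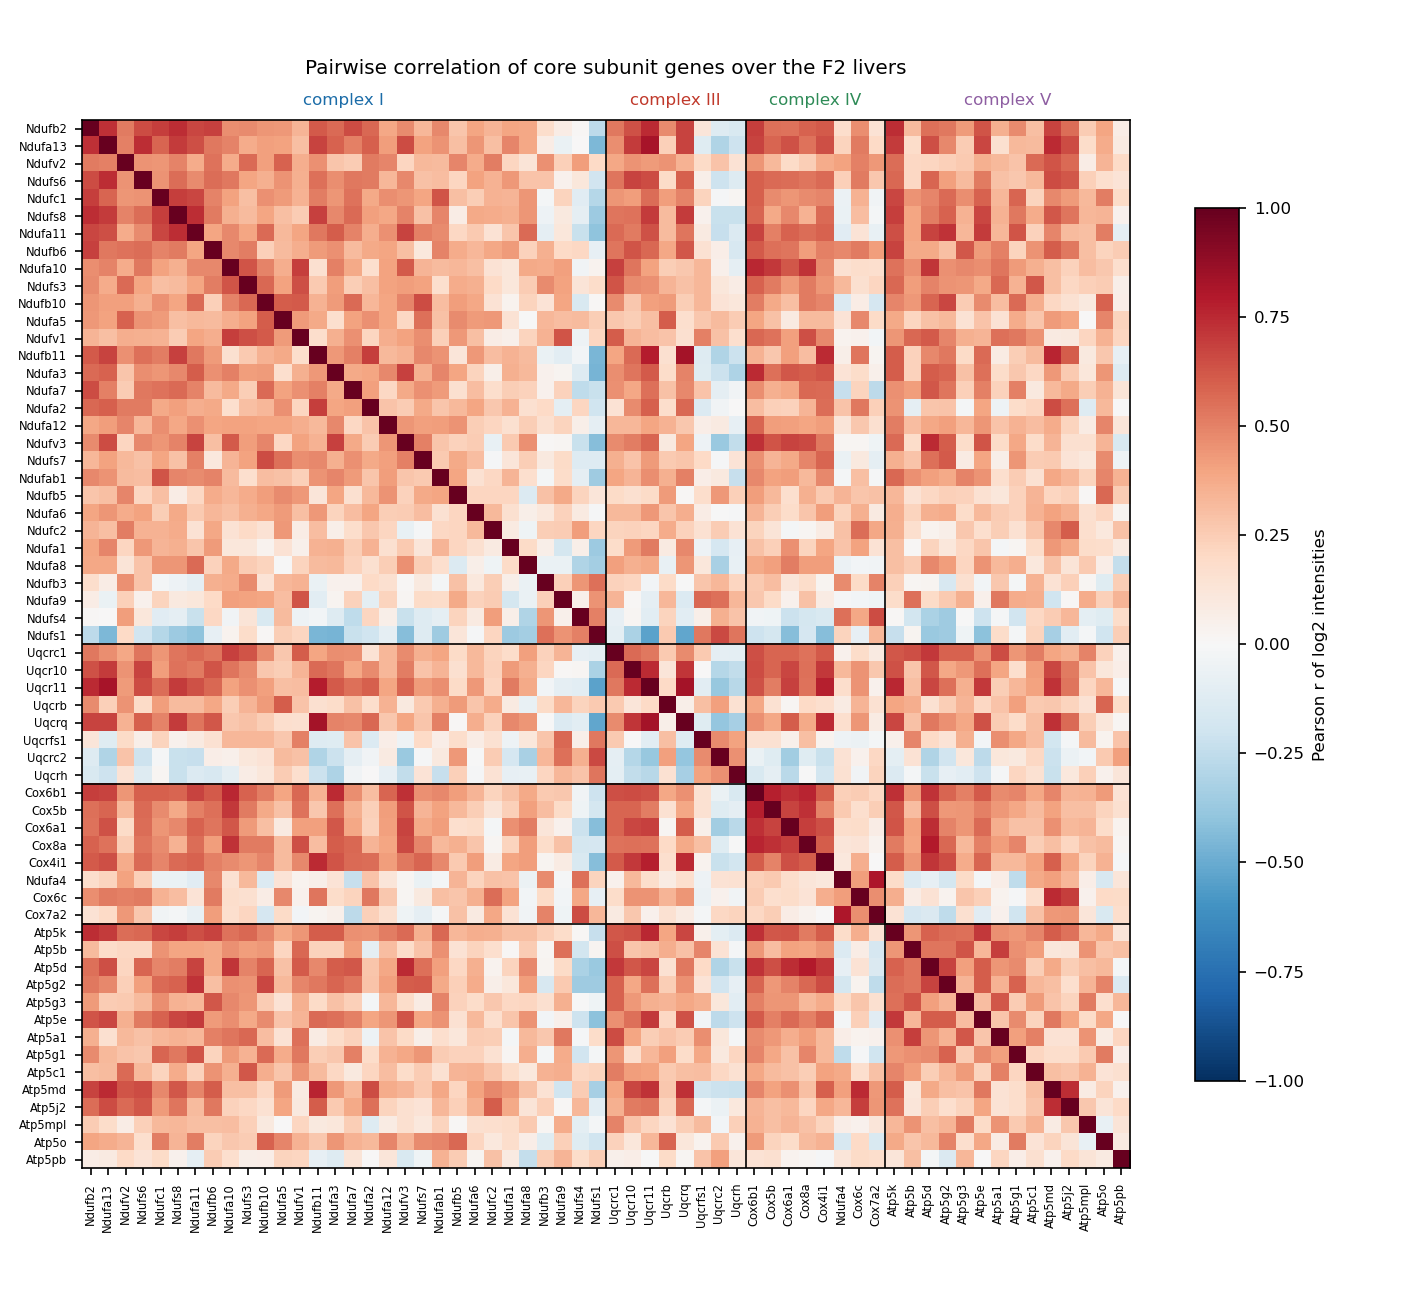
Pearson r between the log2 intensities of all pairs of the 60 core subunit genes over 294 F2 livers, from blue (-1) to red (1), ordered by complex and, within each, by r with the rest of the complex. Most of the map is red, with pale or blue bands at Ndufs1, Ndufs4, Uqcrc2 and Uqcrh and a pair of red squares joining Ndufa4 and Cox7a2 in complex IV.

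The genes closest to the rest of their complex were Ndufb2 in complex I, Uqcrc1 in complex III, Cox6b1 in complex IV and Atp5k in complex V. Ndufb2, an accessory membrane-arm subunit, had 1098, 1381 and 2000 units (lowest, median, highest) and r of 0.778 (rho 0.751) with the rest of complex I, taken as a mean z score. Ndufa13 (r = 0.743) and the iron-sulfur subunit Ndufv2 (r = 0.701) followed it. Uqcrc1, a core protein of complex III, had 1788, 2389 and 3260 units and r of 0.540 with its complex, but 0.718 with the other core subunits together. Uqcr10 (0.448) and Uqcr11 (0.427) followed it. Cox6b1, a complex IV subunit that faces the intermembrane space, had 5436, 6293 and 7526 units and r of 0.767, and was followed by Cox5b (0.711) and Cox6a1 (0.669). The lowest in complex IV were Cox7a2 (0.366) and Cox6c (0.397), and in complex V Atp5pb (0.177) and Atp5o (0.380). Atp5k, subunit e of the ATP synthase, had 3006, 3720 and 5017 units and r of 0.791, and was followed by Atp5b (0.664) and Atp5d, the delta subunit (0.653). In 36 of the 60 core genes r was at least 0.5, in 1 it was negative, and in 41 it was positive in all 15 label blocks. Without the 2 most extreme animals by score, r was 0.768 for Ndufb2, 0.504 for Uqcrc1, 0.758 for Cox6b1 and 0.772 for Atp5k.

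The promoters of 3 of these genes are printed for letters known from regulators of respiratory genes, with that of Atp5g3, which was added after its values and letters were seen. Promoters came from RefSeq on build GRCm38.p6, each 300 bases around the annotated start of transcription, and 65 of the 80 genes matched an entry. Both strands were searched for GCGCATGCG (NRF1), TCAAGGTCA (ERR-alpha), ACTTCCG (the ETS family, which holds GABPA) and AAGATGGCG (YY1). Capitals mark the letters found, which are the NRF1 letters in Uqcrc1 and Atp5k, the ETS letters on the opposite strand in Cox6b1, and the ERR-alpha letters on the opposite strand in Atp5g3. The NRF1 letters overlap their own reverse complement, so one run of capitals holds a match on each strand. Sequences run 5′ to 3′ on the strand of the gene.
Uqcrc1, chr9:108936398-108936697, plus strand: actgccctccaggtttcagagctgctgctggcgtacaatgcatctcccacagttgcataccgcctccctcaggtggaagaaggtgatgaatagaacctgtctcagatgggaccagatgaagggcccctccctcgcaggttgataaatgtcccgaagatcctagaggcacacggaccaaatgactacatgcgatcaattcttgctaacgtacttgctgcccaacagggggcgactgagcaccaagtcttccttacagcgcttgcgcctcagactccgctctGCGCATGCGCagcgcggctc
Cox6b1, chr7:30626065-30626364, minus strand: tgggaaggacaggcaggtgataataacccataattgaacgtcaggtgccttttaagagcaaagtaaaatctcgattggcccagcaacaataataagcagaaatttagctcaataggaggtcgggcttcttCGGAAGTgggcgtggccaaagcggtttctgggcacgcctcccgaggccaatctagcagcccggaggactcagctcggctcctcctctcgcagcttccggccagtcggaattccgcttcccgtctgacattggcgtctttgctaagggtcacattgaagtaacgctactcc
Atp5k, chr5:108434350-108434649, minus strand: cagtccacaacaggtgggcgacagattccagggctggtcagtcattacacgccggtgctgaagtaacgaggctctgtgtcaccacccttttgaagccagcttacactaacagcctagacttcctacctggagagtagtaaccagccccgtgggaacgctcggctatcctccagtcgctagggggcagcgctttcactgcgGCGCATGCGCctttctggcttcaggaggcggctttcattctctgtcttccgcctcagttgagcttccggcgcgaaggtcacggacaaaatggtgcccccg
Atp5g3, chr2:73911277-73911576, minus strand: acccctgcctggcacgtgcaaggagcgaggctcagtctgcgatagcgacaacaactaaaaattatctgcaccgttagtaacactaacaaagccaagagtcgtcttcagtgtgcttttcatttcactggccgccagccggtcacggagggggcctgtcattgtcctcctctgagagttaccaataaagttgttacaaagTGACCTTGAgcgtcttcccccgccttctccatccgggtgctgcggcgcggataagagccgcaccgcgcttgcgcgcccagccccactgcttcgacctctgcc
A gene was counted where any of its promoter entries held the letters. The NRF1 letters were found for 9 of the 65 genes (13.8%), against 3.18% of the 13257 measured genes with an entry. The YY1 letters were in 8 (12.3%) against 2.68%, the ETS letters in 11 (16.9%) against 11.2%, and the ERR-alpha letters in 1 (1.54%) against 0.355%. The promoter of Ndufb2, the closest gene of complex I, held none of the 4. A match is a run of letters and not a shown binding site, and no match says only that these letters are not in this window.

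Some core genes did not follow their complex. Ndufs1 had r of -0.137 and rho of 0.047 with the other complex I genes, with r positive in 11 of 15 blocks. It was lowest against Uqcr11, a small subunit of complex III, at r of -0.535 (rho -0.305). Its nearest gene among the 80 was Uqcrc2, the other core protein of complex III, at r of 0.663 (rho 0.566). Outside the 80, the genes most like Ndufs1 were Ptcd3, a mitochondrial ribosome protein (r = 0.840), Mmut, methylmalonyl-CoA mutase (0.817), Hibch, a valine-breakdown hydrolase (0.808), Dld, the shared dehydrogenase of the 2-oxoacid complexes (0.795), and Pus10 (0.779). Most like it with the opposite sign was Rps27, a cytosolic ribosomal protein gene (-0.680). Ndufs1 also moved with array correlation: across animals its r with how well the array correlated with the rest was 0.520, and its median was 762 units on the 27 arrays of low correlation against 975 on the other arrays. Without those arrays its r with complex I was 0.025. Under quantile normalization it was -0.283, and with block means removed it was -0.0036. The part of those arrays and of the blocks in the result was not tested. Ndufs1 had only 1 probe.

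Uqcrc2 had 3238, 4599 and 5182 units and r of 0.051 with the rest of complex III. Its r with array correlation was 0.513, and its median was 4149 units on the 27 arrays against 4639 on the others. Without the 27 arrays its r with complex III was 0.142, and with block means removed it was 0.124. The genes outside the 80 most like Uqcrc2 were Hibch (0.636), the mitochondrial chaperone gene Hspa9 (0.621), Agmo (0.620), Aifm1 (0.610) and Otc, ornithine transcarbamylase of the urea cycle (0.608). Uqcrc2 and Atp5pb were also measured by a second probe set, at r of 0.760 and 0.614 with the first. Uqcrh, the hinge protein of complex III, had 2540, 3349 and 3885 units and r of 0.014 with its complex, and it too was nearest to Ndufs1 (0.533). Its r with array correlation was only 0.116, and with block means removed its r with complex III was 0.135.

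Ndufs4 had r of 0.084 with complex I, or 0.214 with block means removed, and was nearest to Cox7a2 (0.650) among the 80. Outside them it was closest to Trim23 (0.685), which lies on the same chromosome 43 measured genes away, then to Mrpl1 (0.643) and Fastkd2 (0.631), both of mitochondrial gene expression. Atp5pb, subunit b of the ATP synthase stalk, had 5501, 7413 and 8904 units and the lowest r of complex V, 0.177. No gene outside the 80 was very like Atp5pb, the nearest being Selenop at 0.436. Ndufa9 had r of 0.303 with complex I and was nearest to Ndufv1 (0.628), and outside the 80 to the valine and leucine breakdown genes Hibadh (0.620) and Mccc1 (0.617). Its r with array correlation was 0.506, with a median of 1943 units on the 27 arrays and 2111 on the others, and its r with complex I was 0.429 without them.

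Esrra followed the core subunits across animals, while r of Ppargc1a with them was near 0. Esrra had 101.6 units in the lowest, 164.5 in the median and 288.7 in the highest animal, and r of 0.653 (rho 0.60) with the mean z score of the core, positive in all 15 blocks. In a limma fit of every gene on the log2 level of Esrra, 61 of the 80 genes were higher with Esrra at an adjusted p under 0.05, where 20.3% of all genes were, and 2 were lower, where 13.3% of all genes were. Among genes above the median mean, where 74 of the 80 lie, 60 were higher against 35.3% and 3 lower against 21.03%. By complex, the genes called higher were 26 of 30 in complex I, 5 of 8 in III, 6 of 8 in IV and 13 of 14 in V, with 6 of the 8 assembly factors and 3 of the 8 isoforms. The median slope over the 80 genes was 0.22 log2 units per log2 unit of Esrra, against 0.02 over all genes. Cox6b1 had a slope of 0.28 ± 0.02 (SE, limma adjusted p = 2.57e-27), Atp5k 0.35 ± 0.03 (2.49e-25) and Uqcr11 0.43 ± 0.03 (2.14e-25). Atp5e, the epsilon subunit, had a slope of 0.48 ± 0.05 (limma adjusted p = 2.08e-19), the steepest of the core.

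The 2 genes lower with Esrra were Ndufs1, at -0.24 ± 0.06 (SE, limma adjusted p = 5.86e-04), and Uqcrh, at -0.08 ± 0.03 (0.046). The count of lower genes was 1 in 5 other settings. These were the fit without the 27 arrays (7.88% of all genes) and that with label block as a covariate (11.4%). The others were that with the first principal component removed (13.2%), with the Y-linked mean as a covariate (13.5%) and with all probes (14.9% of probes). The count was 3 under quantile normalization (15.1%). Cox7a2 (0.01 ± 0.04), Ndufa4 (0.05 ± 0.03), Atp5pb (0.02 ± 0.03), Ndufb3 (0.02 ± 0.04) and Ndufs4 (-0.06 ± 0.06) were among the core genes with no call. A slope across animals has no direction of action.

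Ppargc1a had 33.7, 106.8 and 223.5 units (lowest, median, highest), and r of 0.003 (rho 0.017) with the core. Its limma slopes called 19 of the 80 genes higher, against 22.7% of all genes, and 23 lower, against 31.6% of all genes, and these shares moved with the setting. With the first principal component removed, 19 were higher against 11.4% of all genes and 5 lower against 13.4%, and among genes above the median mean 17 of 74 were higher against 34.8% and 22 lower against 30.9%. In complex IV, 5 of the 8 genes were lower and none higher with Ppargc1a. The lower ones included Cox7a2 (-0.09 ± 0.02, limma adjusted p = 3.45e-07) and Ndufa4 (-0.07 ± 0.01, 6.25e-07), and with the Y-linked mean as a covariate 9 of the 80 genes were lower against 20.2% of all genes, and 17 higher against 14.5%. Higher with Ppargc1a were Ndufa9 (0.10 ± 0.01, limma adjusted p = 1.43e-16), Uqcrfs1, the Rieske iron-sulfur protein (0.07 ± 0.01, 2.53e-11), Ndufs1 (0.14 ± 0.02, 1.61e-07) and Atp5g1 (0.10 ± 0.02, 3.24e-07). Ndufa9, Ndufs1 and Uqcrfs1 also moved with array correlation, Uqcrfs1 at r of 0.509 with a median of 4221 units on the 27 arrays and 4569 on the others, and the part of array correlation in these slopes was not tested.

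**Figure D3:**
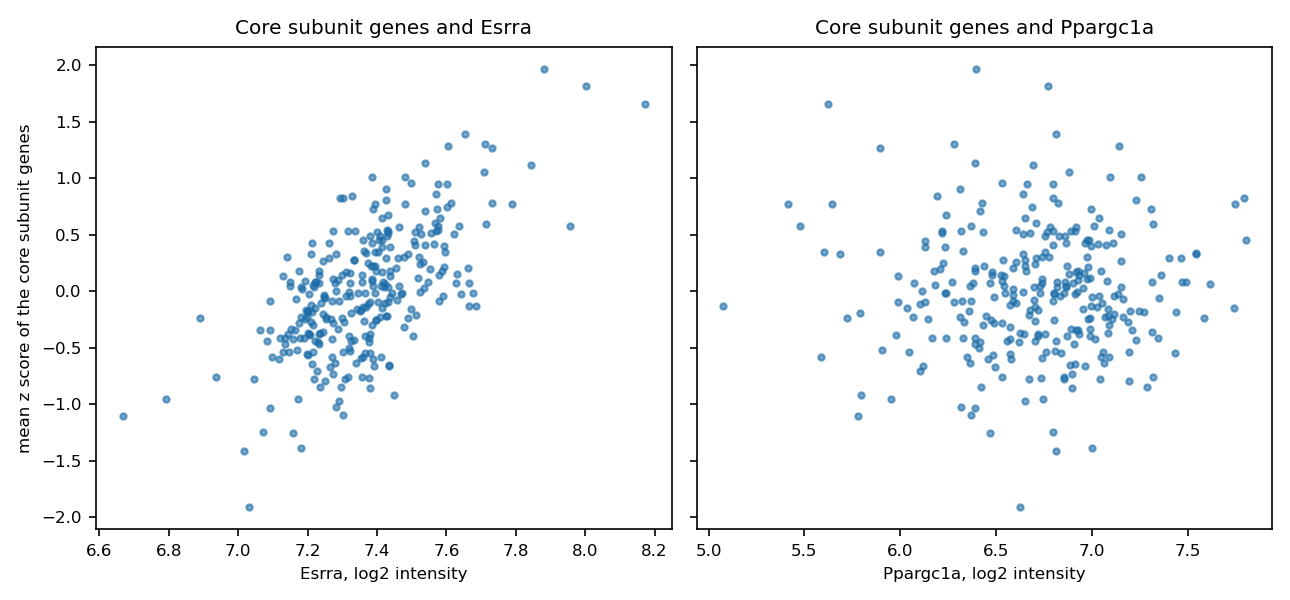
Mean z score of the 60 core subunit genes against the log2 intensity of Esrra (left) and of Ppargc1a (right), 1 point for each of 294 F2 livers. The cloud slopes upward with Esrra (r = 0.653) and shows no clear slope with Ppargc1a (r = 0.003).

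Of 30 related mitochondrial genes, 27 were measured. Besides Esrra itself, 13 of 26 were higher with Esrra, against 20.3% of all genes, and 3 lower, against 13.3%, a share near that background. Cyc1, cytochrome c1 of complex III under another symbol, was the gene of highest r with the core outside the 80, at 0.763 (rho 0.684), and its slope on Esrra was 0.43 ± 0.03 (SE, limma adjusted p = 9.45e-29). Among complex II genes, r with the core was 0.716 for Sdhb, 0.535 for Sdhc, 0.333 for Sdha and 0.118 for Sdhd, so the iron-sulfur subunit was the closest and the anchor Sdhd the least close. The assembly genes Cox17 (0.454) and Surf1 (0.392) and the transcription factor gene Tfam (0.309) were also positive. Gabpa (-0.284), Lrpprc (-0.222) and Cox15 (-0.135) were negative, and Gabpa and Lrpprc were 2 of the 3 lower with Esrra, at -0.21 ± 0.05 (limma adjusted p = 3.23e-05) and -0.23 ± 0.05 (1.16e-04). Nnt, the transhydrogenase gene known to be disrupted in a C57BL/6J strain, had 424, 1235 and 2324 units and r of 0.009 with the core.

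Outside both lists, the core was closest to Bola3, an iron-sulfur cluster factor (0.735), Pnkd (0.733) and Uqcc2, an assembly factor of complex III (0.710). Complex IV was closest to Cox14, one of its assembly factors (0.710), and complex V to Cyc1 (0.855) and to Coq9 of ubiquinone synthesis (0.717). Most opposed to the core were Iigp1, an interferon-induced GTPase (-0.649), and the plasma protein genes Cp, ceruloplasmin (-0.602), and Serping1, the C1 inhibitor (-0.594). Mitochondrial ribosomal protein genes had a mean z score at r of 0.695 with the core, against 0.154 for cytosolic ribosomal protein genes and 0.045 for proteasome genes. Kupffer cell markers (5 of 5 measured, summed intensity 1251 to 12689) had r of -0.171 with the core, and the array median had -0.280. Their part in the opposed genes was not tested.

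Between label blocks 57 of the 80 genes were called by limma's moderated F test at an adjusted p under 0.05, against 32.7% of all genes. Among genes above the median mean the figures were 58 of 74 and 59.5%. The share of variance between blocks had a median of 15.4% over the core, 7.01% over all genes and 9.77% over genes above the median mean. It was largest for Ndufs1, at 30.3% (limma adjusted p = 1.87e-13), with Uqcrq at 26.5% (1.08e-10), Atp5g2 at 25.6% (4.40e-10), Uqcr11 at 25.3% (6.01e-10), Ndufs8 at 24.3% (2.59e-09) and Ndufa11 at 23.6% (6.37e-09). Without the 27 arrays of low correlation these shares were 26.5%, 22.3%, 20.7%, 20.3%, 20.6% and 20.4% in the same order, and 49 of the 80 genes were called, against 22.5% of all genes.

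The mean core score was highest in a block of 23 animals, at 0.467 ± 0.594 (SD), and lowest in a block of 17, at -0.314 ± 0.393. The highest block also had the highest mean of Esrra, 7.53 on the log2 scale, and 5 of its 23 arrays were among the 27, while the lowest block held 0 of them. Without those arrays its mean core score was 0.294, still the highest. In the highest block Uqcrq had 5708, 6844 and 8797 units (lowest, median, highest), while Ndufs1 had 524.5, 773 and 1055, its lowest mean of any block. In the block where Ndufs1 was highest it had 931, 1048 and 1194 units, so the ranges of both blocks overlapped. Animals within a block spread widely around each of these means, and whether blocks stand for litters, plates or dates is not stated.

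**Figure D4:**
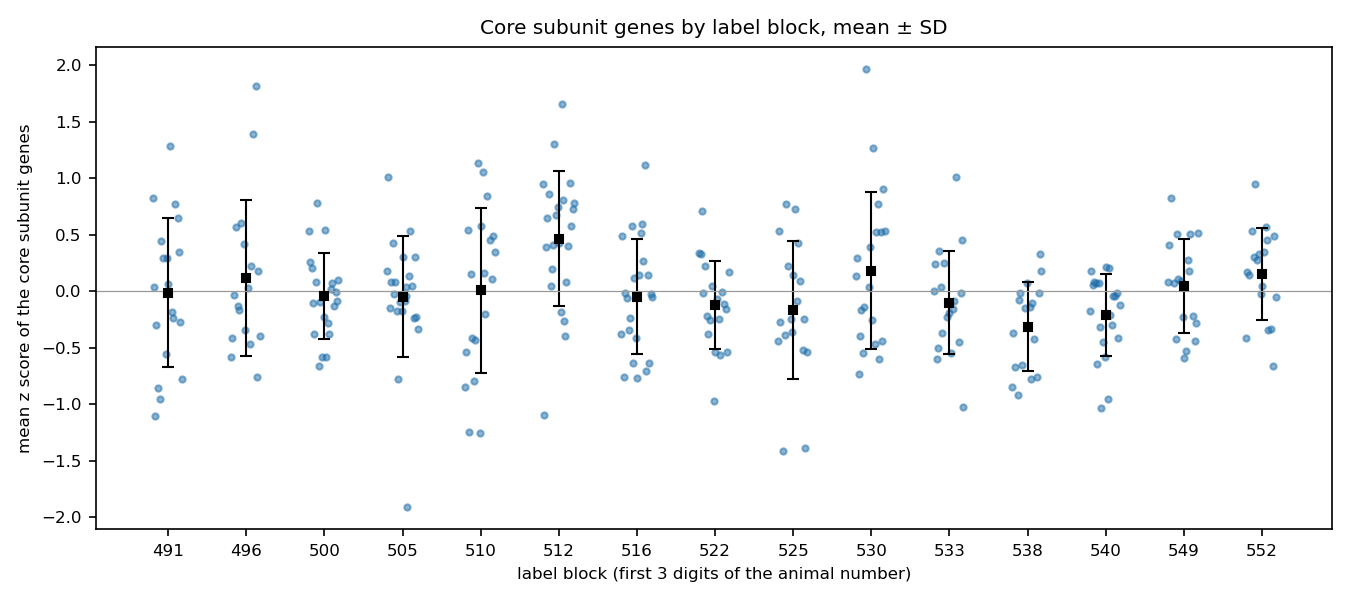
Mean z score of the 60 core subunit genes in each of 294 F2 livers (points) by label block, with block mean ± SD (black). The highest block mean is 0.467 and the lowest -0.314, and the points of those blocks overlap.

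Complex IV held a pair of genes whose levels went with those of Y-linked genes. Ndufa4, once counted with complex I and now with complex IV, had 3766, 4422 and 5317 units, and Cox7a2, the liver form of another complex IV subunit, had 4310, 5365 and 6584. A linear fit on the mean of 3 Y-linked genes took up 56.7% of the variance of Ndufa4 and 46.3% of that of Cox7a2. Such a share was above 20% in 4 of the 80 genes (5%, with Ndufaf4 at 40.7% and Cox7a1 at 22.6%). That line was drawn after the values were seen, and 9.79% of all genes and 16.3% of genes above the median mean passed it. The median of the assembly factor Ndufaf4 was 534 units above the gap in Eif2s3y and 418 below it. For Cox7a1 the medians went the other way, at 19.8 above and 28.1 below. Within the animals above the gap in Eif2s3y, r with the rest of complex IV was 0.087 for Ndufa4 and 0.037 for Cox7a2, and within those below it 0.342 and 0.234. For Cox6b1 the same values were 0.738 and 0.810. The mean pairwise r of complex IV was 0.277 above and 0.358 below the gap, against 0.393 over all animals. Sex is not in the labels and was not inferred for any animal.

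**Figure D5:**
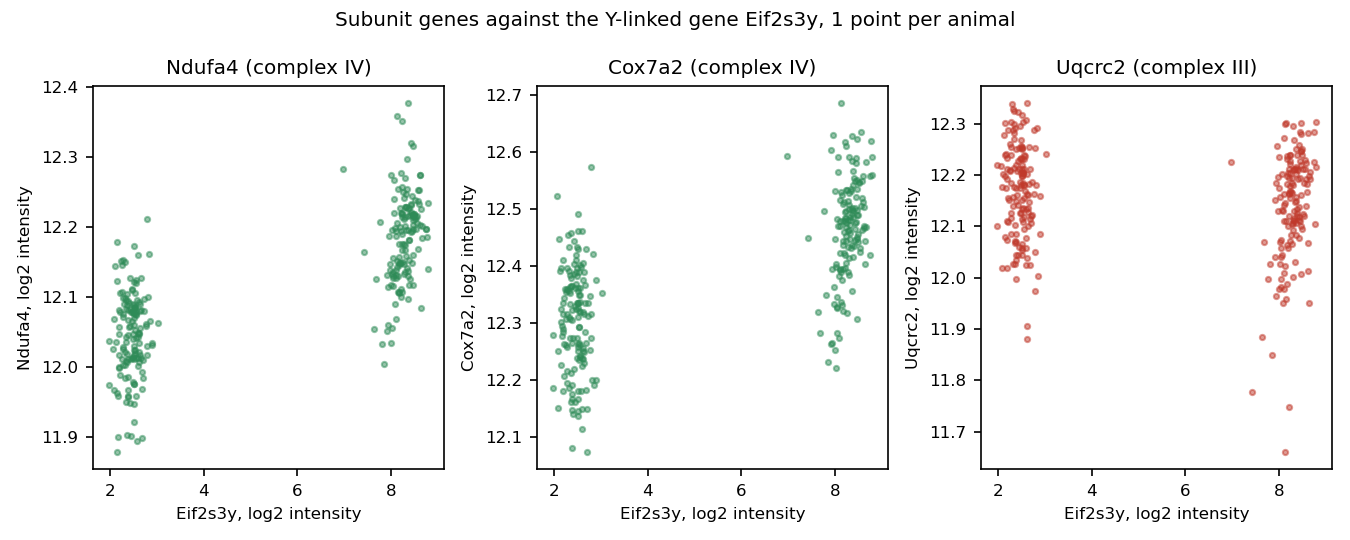
Log2 intensity of Ndufa4, Cox7a2 and Uqcrc2 against that of the Y-linked gene Eif2s3y, 1 point for each of 294 F2 livers. The points form a left and a right cloud on either side of the gap between 3.03 and 6.97, and Ndufa4 and Cox7a2 lie higher in the right one, with overlap, while the clouds of Uqcrc2 (share 1.68%) overlap broadly.

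Of the 8 tissue isoforms, 2 lay above the median gene. Cox7a1, the heart and muscle form of the subunit that Cox7a2 encodes, had 10.4, 24.4 and 130 units and the widest ratio of the 80, 2.55-fold. It followed the core at r of 0.478 and was higher with Esrra, at 0.96 ± 0.16 (SE, limma adjusted p = 1.31e-07), and with Ppargc1a, at 0.48 ± 0.07 (3.63e-11). Its nearest outside genes were Mgst3 (0.670) and Idh2, the mitochondrial isocitrate dehydrogenase (0.643). Cox6a2 and Cox8b, both heart and muscle isoforms, had 25.6, 35.8 and 94.6 units and 8.325, 11.6 and 91.99 units, so a few animals stood far above the median.

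Skeletal muscle markers (6 of 6 measured, none above the median gene, summed intensity 64.8 to 2510) moved with them. A mixture of 2 normals set apart 36 animals with higher marker levels from the others. Within those 36, r with the markers was 0.873 for Cox6a2 and 0.795 for Cox8b, and within the others it was 0.295 and 0.316. For Cox7a1 the values were 0.516 and -0.163. Cox6a2 ran from 32.9 to 94.6 units in the 36 animals and from 25.6 to 46.2 in the others, so the ranges overlapped. Brown adipose markers (2 of 2 measured, none above the median gene) had a summed intensity of 14.4 at the lowest, 18.1 at the median and 430 at the highest. White adipose markers (4 of 5 measured) had 51.3, 94.8 and 528 on the same terms. The part of muscle or fat RNA in these isoforms was not tested. The other isoforms ranged less (lowest, median, highest): Cox8c (53.6, 70.7, 97.6 units), Ndufa4l2 (31.5, 44.4, 60.4), Cox4i2 (11.1, 16.2, 25.2), Cox6b2 (9.04, 13.5, 21.7) and Cox7b2 (4.07, 5.12, 7.36).

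The r of the assembly factors with the core ran from 0.135 for Ndufaf4 to 0.599 for Ndufaf8, with Ndufaf5 at 0.561 and Ndufaf2 at 0.459. Their mean pairwise r was 0.253. Ndufaf1, Ndufaf3 and Ndufaf7 went rather with each other, with Ndufaf1 and Ndufaf3 at r of 0.599. Cox7a2l, a factor that joins complexes III and IV into supercomplexes, had 723, 905 and 1119 units and r of 0.035 with the core. It was not called against Esrra (-0.01 ± 0.04), while its share between blocks was 17.4%.

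Ndufaf6 had 121.03, 224.7 and 378 units, and 13 of the 20 genes most correlated with it by absolute r lay on its own chromosome 4. The nearest were Tmem68 (r = 0.625, 25 measured genes away), Smim8 (0.596, 71 away) and, with the opposite sign, 4930412C18Rik (-0.554, 4 away). For Ndufa6, an accessory subunit of complex I, 10 of 20 lay on its own chromosome 15, led by Ift27 (0.632, 94 away), and Ndufa6 still had r of 0.486 with complex I. For Ndufa12 it was 5 of 20 on chromosome 10, where Cdk17, 12 measured genes away, had r of -0.560. At least 10 of 20 was found for 2 of the 80 genes, or 2.5%, and for 2.99% of all genes, a line drawn after the values were seen. No genotypes were used.

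Shapes with separate classes were small tails. The fits called 18 of the 80 genes with 2 classes and 0 with the 1:2:1 weights of an F2 locus, against 15.9% of all genes with either call. In 17 of the 18 the smaller class held under 10% of the animals, at the low end in 7 genes and at the high end in 11, counting all 18. Those with the smaller class at the low end were Ndufs1, Ndufa9, Ndufaf7, Uqcrc2, Uqcrh, Atp5a1 and Atp5b. Those with it at the high end were Ndufa13, Ndufb2, Ndufb11, Ndufs8, Ndufaf8, Uqcr11, Uqcrq, Cox4i1, Cox6a2, Cox8b and Atp5md. The exception was Ndufs1, with 15% of animals in a lower class. Its class means were 9.53 and 9.94 on the log2 scale. In Uqcr11 the lower class held 91.2% of the animals, with class means of 11.48 and 11.82. Across animals, r with array correlation was from 0.116 (Uqcrh) to 0.520 (Ndufs1) in the genes with the small class at the low end. In those with the small class at the high end it was from -0.294 (Uqcr11) to -0.106 (Cox6a2). The shape fits were not run without the 27 arrays of low correlation. The part of array correlation in these classes was not tested, and the side and size of tails were not counted over all genes. The fits can miss closely spaced classes, so no 1:2:1 call does not show that a gene lacks such a locus.

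Of the 80 genes, 16 had several probes. The r between the 2 brightest had a median of 0.388, against 0.297 over all genes with several probes. It was highest for Atp5b (0.794), Ndufaf4 (0.780) and Uqcrc2 (0.760). It was under 0.2 for Ndufs8, Atp5c1, Uqcrq, Dmac2l, Ndufs4, Atp5g1 and Uqcr10, so that the variation given for these rests on 1 probe. Atp5g1, Atp5g2 and Atp5g3 encode the same mature protein, and whether their probes tell the transcripts apart was not tested.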

How the data were processed

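Liver RNA of 294 F2 mice was measured on Affymetrix arrays, 1 per animal. The deposited table holds normalized intensity values on a linear scale, made by the authors with RMA, per the submitters' processing notes, with settings not given in the sources used here. The 32640 probes had values from 2.77 to 25519, and log2 was taken with no pseudocount. Of the probes, 25508 had 1 gene symbol in the platform annotation. The other 7132 had no single symbol there and were not used for genes. Of 16788 symbols, 2830 were updated through a synonym in a RefSeq table, and each of 16643 genes was represented by its brightest probe.

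The members and lists were chosen with earlier results of these data known. Label blocks (limma's moderated F test) and slopes on Esrra and Ppargc1a (limma 3.58.1, R 4.3.3) were fitted over all genes with Benjamini-Hochberg adjustment at 0.05. Coexpression was described by Pearson r and Spearman rho over animals without p-values, and scores were mean z scores. Shapes were compared by BIC among 1 normal, 2 normals and 3 equally spaced normals of weights 1:2:1, a call needing a gain of 10 and means 1.5 SD apart. Running SDs used windows of 501 genes.

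The rule for named genes, of which the text may leave some out for length, took, for each complex, the 3 genes of highest and 2 of lowest r, the widest, brightest and dimmest genes, the 6 of largest block share, the isoforms, every gene of 2 classes, and the genes nearest to each complex and to the 6 loosest members. Nearest genes of Ndufa4, Cox7a2, Ndufa6, Ndufa12, Ndufaf6 and the muscle isoforms, the split of muscle marker levels and the comparison families were chosen after the values were seen. The tests were tested on simulated data. The first simulation of 1:2:1 shapes, spaced 2.5 SD, was recovered in only a minority of cases; a spacing of 3.5 SD, added afterwards, was recovered, so the absence of such calls covers wide spacings alone. Each animal is 1 sample of the single group, and the alternatives were quantile scaling, adjustment for blocks, the leading principal component or Y-linked genes, fewer arrays, other probes and other genes. The labels do not say whether blocks mark a technical step.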

Additional observations from a re-analysis of the deposited data

How the results depend on the processing

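Most alternative values stayed within the spread over label blocks or, for counts, within 1.5 times, and 17 did not. That spread comes from blocks of 17 to 23 animals, so it is a wide line for values over 294 animals. The order of complexes IV and V turned inside it, with the Y-linked mean or the first principal component removed. The second brightest probe, which only 16 of the 80 genes have and which is often dim, gave a mean pairwise r of 0.055 over 14 core subunits, 0.040 over 16 members, 0.069 in complex I, -0.0044 in complex III and 0.060 in complex V. It also left 0 of 14 core genes with r of at least 0.5, against 36 of 60, and gave a median fold of 1.34 over members and 1.32 over core subunits. The mean r of complex IV was 0.277 in the animals above the gap in Eif2s3y. Members lower with Ppargc1a numbered 23 (31.6% of all genes), against 5 with the first principal component removed (13.4%) and 9 with the Y-linked mean as a covariate (20.2%). Members lower with Esrra numbered 2 (13.3% of all genes), 3 under quantile normalization (15.1%) and 3 of 74 among genes above the median mean (21.03%). They numbered 1 with the first principal component removed (13.2%), 1 with the Y-linked mean as a covariate (13.5%) and 1 without the arrays of low correlation (7.88%). With label block as a covariate the count was 1 (11.4%), and with all probes fitted 1 (14.9% of all probes). Genes with 2 classes numbered 18 (15.9% of all genes), and 10 with block means removed (11.7%). The cause of these shifts was not tested. The count of 61 higher with Esrra ranged from 58 (16.5% of all genes, without the arrays of low correlation) to 65 (31.5%, quantile normalization), with all-gene shares from 14.03% to 35.3%, and the mean r of the core from 0.265 to 0.339 when the second probe is left aside. The number of arrays limits the precision, and some second probes and isoforms lie near the array floor. No paired analysis was possible because the labels give a single group.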
